A study of Mus musculus with 9 samples.

Results

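The mitotic genes described here are 37 genes whose products carry out chromosome condensation, spindle assembly, chromosome attachment, exit from mitosis and the splitting of the cell. They were chosen by name, and all 37 were matched by symbol in each of the 3 deposited tables, out of 16750 genes with a value in all 9 libraries. The RNA came from the media of femoral arteries (the wall layer built of smooth muscle cells) of C57BL/6 mice, in 3 groups of 3 libraries. The sham group was sham-operated, the injured group was taken at day 14 of wire injury, and the inhibitor-treated group at the same time after injury. This last group had received VS-4718, which blocks focal adhesion kinase (FAK), through 2 weeks of oral gavage (2 doses of 50 mg/kg every day). The labels name a citrate vehicle as the other arm of the dosing, and they do not give the day of collection of the sham arteries. Per the labels' protocol the outer layers were stripped off by hand and a brief flush of lysis reagent through the lumen was meant to take away endothelium and immune cells, so each library is bulk tissue and not sorted smooth muscle cells. The number of animals behind each library is not in the labels, and the p-values therefore reflect the spread among these samples alone, which may be technical. Words such as rose, fell, stayed and returned below describe differences between these groups, since no artery was followed over time.

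Cells that are not dividing keep the genes of mitosis switched off. As a cell passes from DNA replication towards division, the transcription factors B-Myb and Foxm1 join the MuvB complex at these promoters, and their transcripts rise together before cyclin-dependent kinase 1 starts mitosis. The anaphase promoting complex then destroys several of the proteins so that the cell can exit. In a healthy artery smooth muscle cells rarely divide, and wire injury is a standard model in which cells of the wall proliferate and build a neointima.

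The MuvB complex binds DNA through its subunit Lin54 at a short element called the cell cycle genes homology region, often written TTTGAA or TTCGAA, and many of these promoters also hold CCAAT boxes, which are bound by the factor NF-Y. RefSeq promoters on build GRCm38.p6, from 250 bases before to 50 bases after a start site, were matched by symbol for 32 of the 37 genes, giving 34 promoters. Both hexamers and the CCAAT box were searched on both strands, and overlapping matches were counted. TTTGAA or TTCGAA was in 29 of the 34 promoters (85.3%), against 19.2% of all 32851 promoters of that length. Within the stretch from 40 bases before to 20 bases after the start the shares were 58.8% and 3.53%. CCAAT was in 26 of the 34 (76.5%), against 37.4% of all promoters, and 70.6% held CCAAT together with one of the hexamers, against 7.52%. The 250 bases before the start are shown for 5 genes whose levels behaved differently with the inhibitor, as described below. With the inhibitor Plk1 lay inside the sham range, and Cdk1 and Top2a lay between sham and injury, Cdk1 nearer to sham. Mki67 overlapped the injured libraries, and Bub1b lay above them. Capitals mark each match to the hexamers and to CCAAT, or to their reverse complements TTCAAA and ATTGG.
Cdk1: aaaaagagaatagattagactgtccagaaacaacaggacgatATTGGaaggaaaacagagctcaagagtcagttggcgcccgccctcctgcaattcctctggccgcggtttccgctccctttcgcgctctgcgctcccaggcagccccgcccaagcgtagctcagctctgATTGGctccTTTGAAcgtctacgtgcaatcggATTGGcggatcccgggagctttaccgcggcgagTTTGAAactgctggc
Plk1: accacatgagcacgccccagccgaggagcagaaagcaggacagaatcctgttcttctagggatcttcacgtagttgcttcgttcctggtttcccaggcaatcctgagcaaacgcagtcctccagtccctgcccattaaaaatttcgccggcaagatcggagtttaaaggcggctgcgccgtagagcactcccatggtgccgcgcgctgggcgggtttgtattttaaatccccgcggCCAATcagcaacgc
Top2a: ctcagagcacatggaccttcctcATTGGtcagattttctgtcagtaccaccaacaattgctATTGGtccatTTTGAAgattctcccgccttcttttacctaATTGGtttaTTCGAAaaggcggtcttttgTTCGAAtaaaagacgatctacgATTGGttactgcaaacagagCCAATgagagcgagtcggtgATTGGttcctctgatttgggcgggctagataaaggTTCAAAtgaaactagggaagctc
Mki67: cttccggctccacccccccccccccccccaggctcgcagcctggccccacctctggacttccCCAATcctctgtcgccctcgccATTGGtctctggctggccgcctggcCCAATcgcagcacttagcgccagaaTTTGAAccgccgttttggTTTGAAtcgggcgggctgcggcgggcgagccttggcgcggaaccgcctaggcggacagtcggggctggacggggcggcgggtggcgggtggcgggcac
Bub1b: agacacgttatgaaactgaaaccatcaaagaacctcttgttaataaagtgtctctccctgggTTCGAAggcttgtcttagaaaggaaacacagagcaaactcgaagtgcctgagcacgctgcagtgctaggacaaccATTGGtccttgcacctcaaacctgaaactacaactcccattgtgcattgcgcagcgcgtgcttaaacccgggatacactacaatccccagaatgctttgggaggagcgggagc
These stretches lie at chr10:69352913-69353162 for Cdk1, chr7:122159185-122159434 for Plk1, chr11:99024190-99024439 for Top2a, chr7:135716380-135716629 for Mki67 and chr2:118597961-118598210 for Bub1b, on the minus strand for Cdk1, Top2a and Mki67 and on the plus strand for Plk1 and Bub1b. The TTTGAA of Plk1 and that of Bub1b lie after the start, outside the bases shown, at positions 31 and 41 counted from the start base as position 1. Nusap1, Nuf2 and Birc5 held none of the 3 motifs in the window, although Nusap1 ended far above sham with the inhibitor and Nuf2 and Birc5 overlapped it. Among the genes with a matched promoter, a hexamer was present in 15 of the 19 that were lower with the inhibitor than after injury alone, in 10 of the 10 that were not called and in 2 of the 3 that were higher. A match describes letters in a window and was not tested as a binding site.

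**Figure D1:**
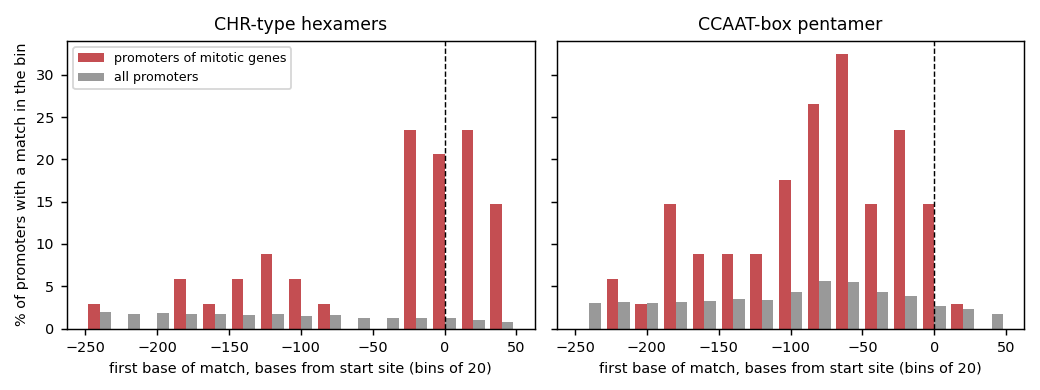
Share of promoters with a match in each bin of 20 bases (vertical axes, percent) by distance of the match's first base from the start site (horizontal axes, bases), for TTTGAA or TTCGAA (left) and CCAAT (right). Red bars are the 34 promoters of mitotic genes and grey bars all 32851 promoters; hexamer matches of the mitotic genes are most frequent in the bins next to the start (23.5% from 30 to 10 bases before it), and CCAAT matches further upstream (32.4% from 70 to 50 bases before it).

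Between 14676405 and 21247261 reads per library could be recovered from the deposited values, and levels below are normalised read counts on one scale over the 9 libraries. The 37 genes together took 1704 to 2165 reads in a sham library, 5539 to 8793 in an injured library and 3879 to 7755 in an inhibitor-treated library. Low sham values therefore rest on few reads: 3 to 5 of the genes had under 10 reads in a sham library, 1 did in inhibitor-treated replicate 3, and none did elsewhere. The tissue label was checked with 12 smooth muscle markers, which were present in every library, at a mean log2 level of 14.39 to 14.75 in sham, 12.72 to 12.99 in injured and 14.62 to 14.66 in inhibitor-treated libraries. Skeletal muscle genes varied widely, with mean log2 levels of 8.14, 7.83 and 10.70 in sham, 11.43, 14.39 and 10.52 in injured and 6.98, 10.53 and 8.69 in inhibitor-treated libraries. Inhibitor-treated replicate 3 was high in liver genes (10.61, against 2.71 to 4.06 in the other 8 libraries). Counts are also given without sham replicate 3, injured replicate 2 and inhibitor-treated replicate 3, which leaves in libraries such as injured replicate 1 and inhibitor-treated replicate 2 that were also high in muscle genes.

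At day 14 after injury 36 of the 37 genes were higher than in sham arteries and 1, Anln, was lower. Every one of the 37 separated the 2 groups without overlap. Across all genes 20.6% were called higher and 16.8% lower in this comparison (37.3% in all). The median log2 fold change of the mitotic genes was 2.49, against -0.003 for all genes tested, and it ran from -1.39 for Anln to 3.51 for Cdk1. With the inhibitor 23 genes were lower than after injury alone, 3 were higher (Nusap1, Bub1b and Anln) and 11 did not pass the test. The background was 18.5% called lower and 17.6% higher (36.1% in all), and the median was -1.28 against 0.006. Compared with sham, 10 genes were higher in inhibitor-treated arteries and none was lower, against a background of 5.15% called higher and 0.934% lower (6.08% in all), with a median of 1.04 against -0.007. The absence of lower calls held in limma, edgeR and DESeq2, and no gene was lower even at an unadjusted p under 0.05, at which limma counted 26 genes higher.

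**Figure D2:**
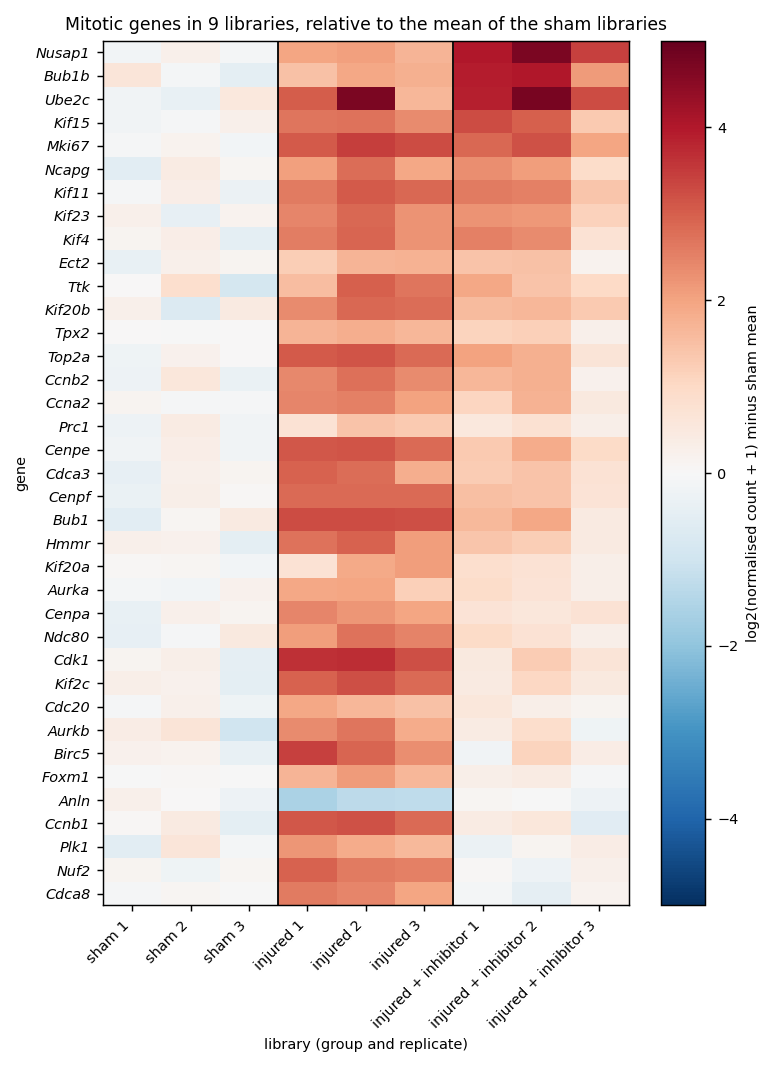
Levels of the 37 genes (rows) in the 9 libraries (columns), coloured by log2(normalised count + 1) minus the mean of the sham libraries, ordered by the share of the injury difference that was absent with the inhibitor. The injured columns are red for all genes but Anln, and the inhibitor-treated columns run from darker than the injured ones at the top (Nusap1, Bub1b) to near the sham colour at the bottom (Nuf2, Cdca8).

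The number of calls against sham moved with single libraries. Of the 10 genes, 4 (Nusap1, Ube2c, Bub1b and Mki67) were called in each of the 18 alternatives tried. The number called was 4 without sham replicate 1, 5 without sham replicate 2 and 8 without sham replicate 3. It was 5 without inhibitor-treated replicate 1, 5 without inhibitor-treated replicate 2 and 16 without inhibitor-treated replicate 3. It was 18 without both sham replicate 3 and inhibitor-treated replicate 3. Inhibitor-treated replicate 3 had the lowest level of its group for 30 of the 37 genes. Its mean log2 level over the 36 genes that rose was 5.48, against 6.16 and 6.29 in replicates 1 and 2, 4.62 to 4.90 in sham and 6.96 to 7.39 in injured libraries. Without sham replicate 3 and injured replicate 2, 33 genes were higher and 1 lower after injury. Without injured replicate 2 and inhibitor-treated replicate 3, 16 were lower and 3 higher with the inhibitor against injury. Scaling on ribosomal protein genes moved the median of all genes to -0.211 after injury, 0.373 for inhibitor against injury and 0.136 for inhibitor against sham. The mitotic medians relative to the last pair were -1.29 and 1.04. The same scaling moved the share of higher among all calls from 48.8% to 70.7% against injury and from 84.6% to 97.7% against sham, where quantile normalisation gave 73.7% and 1 fit of all 9 libraries 95.0%. By the mean log2 level the inhibitor-treated libraries lay between the other groups with no overlap. By the summed level of the 36 genes inhibitor-treated replicate 2 (6236.6) lay above injured replicate 3 (5473.9). After injury 34 of the 37 calls, and with the inhibitor against injury 18 of the 26, held in every alternative that tested the gene. The alternative with a mean of at least 50 tested 31 and 34 of the 37 genes in these comparisons.

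Foxm1, the transcription factor that switches on many of the other genes of the set, measured 42.1, 44.6 and 42.5 in the sham libraries, 141, 192 and 139 in the injured and 52.3, 57.9 and 40.97 in the inhibitor-treated. The injured libraries stood alone and the other groups overlapped. Its log2 fold change was 1.82 ± 0.21 (SE, adjusted p = 0.00032) after injury and -1.62 ± 0.22 (adjusted p = 0.00139) with the inhibitor against injury, and 0.22 ± 0.21 (adjusted p = 0.593) with the inhibitor against sham.

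Cyclin-dependent kinase 1 and its cyclin partners A2, B1 and B2, which drive entry into mitosis, all rose after injury (4 of 4) and all were lower with the inhibitor (4 of 4), and none of them was called above sham. Cdk1 measured 20.1, 22.3 and 13.1 in sham, 238, 244 and 179 in injured and 25.7, 45.03 and 29.1 in inhibitor-treated libraries. It had the highest fold change of the set after injury, 3.51 ± 0.27 (adjusted p = 4.93e-05), and changed by -2.72 ± 0.26 with the inhibitor (adjusted p = 0.000333). The inhibitor-treated libraries still lay above the highest sham library, at 0.82 ± 0.34, which missed the threshold (adjusted p = 0.213). Ccnb1 overlapped sham on both sides, at 13.04, 17.6 and 8.73 in sham, 117, 124 and 97.2 in injured and 17.1, 19.3 and 8.19 in inhibitor-treated libraries. Its change with the inhibitor, -2.91 ± 0.35 (adjusted p = 0.000842), was the most negative of the 37 genes. Ccna2 stood at 62.2, 54.03 and 53.5 in sham, 313, 326 and 228 in injured and 121, 192 and 80.1 in inhibitor-treated libraries, so that the last group lay between the others without overlapping either. Ccna2 was 2.31 ± 0.20 higher on the log2 scale after injury (adjusted p = 7.53e-05) and changed by -1.21 ± 0.32 with the inhibitor (adjusted p = 0.0226). Ccnb2, at 16.1, 29.4 and 15.3 in sham, 105, 136 and 103 in injured and 63.7, 68.01 and 22.8 in inhibitor-treated libraries, was high in inhibitor-treated replicates 1 and 2 and within the sham range in replicate 3. The Ccna2 call against injury was lost without injured replicate 1 (adjusted p = 0.067), injured replicate 2 (0.0723) or inhibitor-treated replicate 1 (0.071). That of Ccnb2, at adjusted p = 0.0488 with all libraries, was lost without injured replicate 1 (0.094), 2 (0.135) or 3 (0.0673) or inhibitor-treated replicate 1 (0.0637). Without inhibitor-treated replicate 3 both were called above sham, at adjusted p = 0.0145 for Ccna2 and 0.0311 for Ccnb2.

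The mitotic kinases Aurora A, Aurora B and Plk1 rose after injury (3 of 3) and were lower with the inhibitor (3 of 3). Plk1, which acts from centrosome maturation to cytokinesis, measured 16.1, 36.4 and 21.8 in sham, 112, 88.4 and 74.9 in injured and 19.02, 25.7 and 30.96 in inhibitor-treated libraries. Its changes were 1.90 ± 0.34 after injury (adjusted p = 0.00293) and -1.83 ± 0.28 with the inhibitor (adjusted p = 0.00228). The inhibitor-treated libraries all lay inside the sham range. Aurkb, the kinase of the chromosomal passenger complex, measured 21.1, 25.8 and 7.64 in sham, 88.5, 109 and 61.96 in injured and 21.9, 30.3 and 13.7 in inhibitor-treated libraries, with the last group overlapping sham. Aurka, which matures the spindle poles, measured 24.1, 23.5 and 30.6 in sham, 103, 105 and 60.2 in injured and 49.5, 42.3 and 31.9 in inhibitor-treated libraries, and stayed just above every sham library. Its call against injury (adjusted p = 0.0273) was lost without injured replicate 1 (0.0796), injured replicate 2 (0.0907), inhibitor-treated replicate 2 (0.0707) or inhibitor-treated replicate 3 (0.0845).

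The other members of the passenger complex in the set, Birc5 (survivin) and Cdca8 (borealin), which bring Aurora B to the centromeres, also overlapped sham. Cdca8 measured 23.1, 25.8 and 24 in sham, 152, 138 and 98.1 in injured and 22.8, 17.5 and 27.3 in inhibitor-treated libraries. Birc5 measured 25.1, 24.7 and 16.4 in sham, 244, 170.1 and 113 in injured and 19.02, 47.8 and 28.2 in inhibitor-treated libraries. Every injured library of both genes lay above all the others. Cdca8 changed by 2.33 ± 0.25 after injury (adjusted p = 0.000213) and by -2.46 ± 0.27 with the inhibitor (adjusted p = 0.000589), so that it ended -0.11 ± 0.28 from sham (adjusted p = 0.856).

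Kinetochore and centromere genes (5) all rose after injury and all were lower with the inhibitor, and 1 of them, Cenpe, was still called above sham. Nuf2, a subunit of the Ndc80 complex that binds spindle microtubules, measured 18.1, 14.1 and 17.5 in sham, 135, 105 and 98.1 in injured and 17.1, 13.8 and 20.03 in inhibitor-treated libraries. It changed by -2.66 ± 0.26 with the inhibitor (adjusted p = 0.000339), and its inhibitor-treated and sham libraries interleaved. Its partner in the complex, Ndc80, measured 9.03, 11.8 and 17.5 in sham, 54.99, 87.4 and 74.01 in injured and 24.7, 21.1 and 15.5 in inhibitor-treated libraries, overlapping sham. The centromere histone Cenpa measured 45.1, 70.5 and 64.4 in sham, 329, 279 and 232 in injured and 94.2, 88.2 and 97.4 in inhibitor-treated libraries. The motor protein Cenpe measured 21.1, 30.5 and 20.7 in sham, 210.4, 216 and 173 in injured and 60.9, 88.2 and 46.4 in inhibitor-treated libraries. Cenpf, a large protein of the outer kinetochore, measured 22.1, 35.2 and 29.5 in sham, 207, 207 and 209.97 in injured and 82.7, 77.2 and 46.4 in inhibitor-treated libraries. In all 3 of these genes every inhibitor-treated library lay between the sham and the injured libraries. Against sham the differences were 1.38 ± 0.30 for Cenpe (adjusted p = 0.0327), 1.21 ± 0.29 for Cenpf (0.0502) and 0.66 ± 0.20 for Cenpa (0.104). The call for Cenpe was lost without sham replicate 1 (adjusted p = 0.111), 2 (0.0547) or 3 (0.0776) and without inhibitor-treated replicate 1 (0.102) or 2 (0.123), and Cenpf was called without inhibitor-treated replicate 3 (0.0228).

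Spindle checkpoint genes did not move together with the inhibitor. Bub1, a checkpoint kinase, measured 5.02, 8.22 and 10.9 in sham, 83.7, 83.6 and 80.9 in injured and 25.7, 32.2 and 10.9 in inhibitor-treated libraries, and changed by -1.93 ± 0.40 with the inhibitor (adjusted p = 0.00829). Bub1b, which encodes BubR1 of the mitotic checkpoint complex, measured 65.2, 38.8 and 29.5 in sham, 118, 163 and 145 in injured and 656, 685 and 188 in inhibitor-treated libraries. Every injured library was above every sham library, and every inhibitor-treated library was above every injured one. Bub1b was 1.71 ± 0.31 higher after injury (log2 scale, adjusted p = 0.00296), a further 1.63 ± 0.48 higher with the inhibitor (adjusted p = 0.033) and 3.36 ± 0.50 above sham (adjusted p = 0.00704). The middle value lost its call without injured replicate 1 (adjusted p = 0.0941), 2 (0.0666) or 3 (0.0563) and without inhibitor-treated replicate 1 (0.114) or 2 (0.106). Ttk, the kinase that starts checkpoint signalling, was low throughout, at 7.02, 12.9 and 3.27 in sham, 21.5, 60.8 and 49.05 in injured and 28.5, 20.2 and 14.6 in inhibitor-treated libraries. Its change with the inhibitor was called only without injured replicate 1 among the libraries left out (-1.38, adjusted p = 0.0355).

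**Figure D3:**
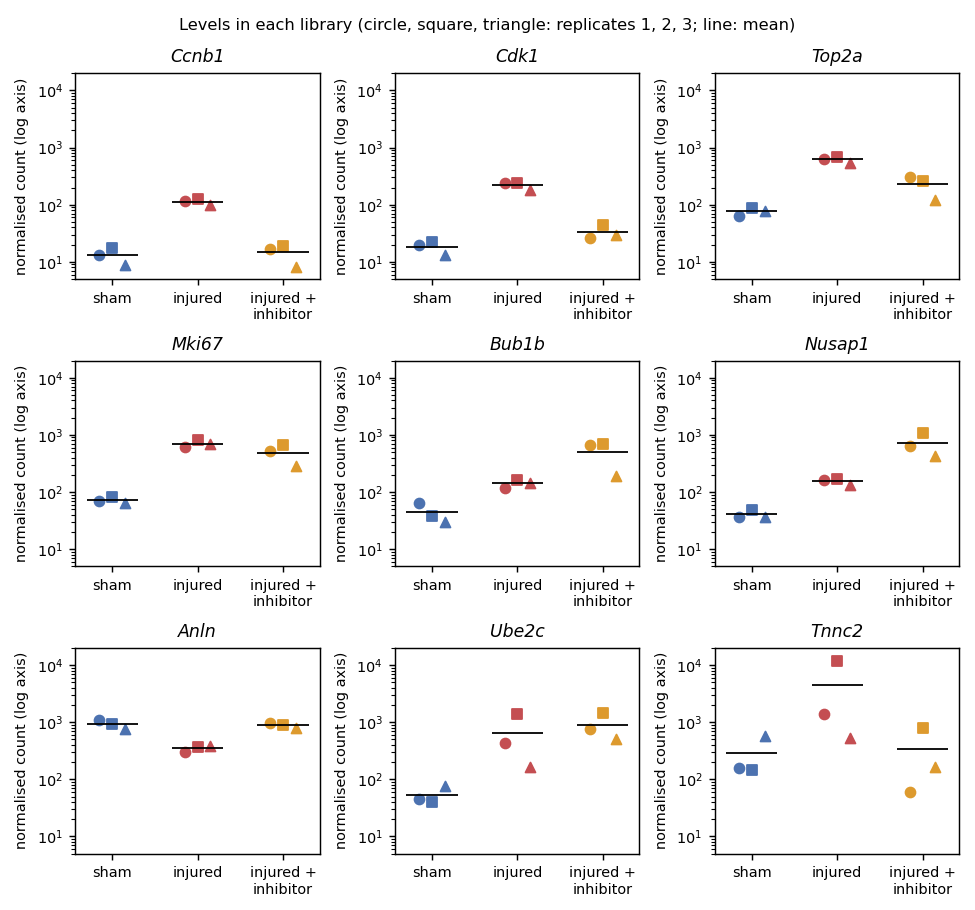
Normalised counts (log axis) of 8 mitotic genes and of Tnnc2, a skeletal muscle gene that overlaps Ube2c, in each library by group; circles, squares and triangles are replicates 1, 2 and 3, and lines are group means. In inhibitor-treated libraries Ccnb1 sits at sham, Cdk1 above sham but nearer to it than to injury, and Top2a in between. Mki67 sits near the injured level and Nusap1 and Bub1b above it, and Anln runs the other way.

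Kinesins, the microtubule motors of the spindle, rose after injury (7 of 7), but only 2 of 7 were lower with the inhibitor and 4 of 7 were still called above sham. Kif11, which pushes the spindle poles apart, measured 23.1, 30.5 and 19.6 in sham, 152, 206 and 182 in injured and 152, 141 and 63.7 in inhibitor-treated libraries. Kif15, which can share the task of Kif11, measured 16.1, 17.6 and 21.8 in sham, 122, 125 and 99.8 in injured and 185, 153 and 46.4 in inhibitor-treated libraries. Kif23, a motor of the central spindle, measured 38.1, 23.5 and 36 in sham, 177, 241 and 153 in injured and 155, 145 and 72.8 in inhibitor-treated libraries. For these 3 genes inhibitor-treated replicate 3 lay between the injured and sham libraries, while replicates 1 and 2 lay near the lower end of the injured range for Kif11 and Kif23 and above that range for Kif15. They were 2.17 ± 0.35 (Kif11, adjusted p = 0.00974), 2.53 ± 0.48 (Kif15, 0.0199) and 1.87 ± 0.33 (Kif23, 0.0145) above sham. The difference of Kif15 from injury, -0.07 ± 0.49 (adjusted p = 0.925), took the opposite sign in 7 of the 18 alternatives. The chromosome motor Kif4 had a like pattern, at 14.1, 16.4 and 8.73 in sham, 80.1, 102 and 64.5 in injured and 77.03, 69.8 and 21.9 in inhibitor-treated libraries, and missed the test against sham (adjusted p = 0.069) except without inhibitor-treated replicate 3 among the libraries left out (0.00613).

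Kif2c, which depolymerises microtubules at the kinetochore, returned further, at 10.03, 9.40 and 5.46 in sham, 68.1, 84.6 and 62.8 in injured and 11.4, 17.5 and 11.8 in inhibitor-treated libraries, a change with the inhibitor of -2.33 ± 0.29 (adjusted p = 0.000965). Kif20b, a motor of late mitosis, lay in between, at 21.1, 10.6 and 24 in sham, 95.6, 135 and 128 in injured and 54.2, 57.9 and 45.5 in inhibitor-treated libraries, and differed from both injured (-1.16 ± 0.21, adjusted p = 0.00528) and sham (1.53 ± 0.34, adjusted p = 0.0365). Kif20a measured 37.1, 37.6 and 31.6 in sham, 59.8, 135 and 156 in injured and 64.7, 58.8 and 43.7 in inhibitor-treated libraries, with injured replicate 1 among the inhibitor-treated values, and was called lower with the inhibitor without that library (-1.38, adjusted p = 0.0081). Several calls of these motors against sham rested on single libraries. Kif11 lost its call without sham replicate 1 (adjusted p = 0.0536). Kif15 lost it without sham replicate 1 (0.0882), sham replicate 2 (0.0767), inhibitor-treated replicate 1 (0.0694) or 2 (0.0804). Kif23 lost it without sham replicate 1 (0.0504), sham replicate 2 (0.0574), inhibitor-treated replicate 1 (0.0596) or 2 (0.063). Kif20b lost its call without sham replicate 1 (0.0834), sham replicate 2 (0.0595) or inhibitor-treated replicate 1 (0.123), 2 (0.138) or 3 (0.0624).

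Nusap1, which binds and bundles microtubules near the chromosomes, had the largest fold change above sham of the 37 genes. It measured 36.1, 48.2 and 37.1 in sham, 160.2, 168 and 134 in injured and 651, 1074 and 435 in inhibitor-treated libraries, with no overlap between any of the groups. Nusap1 was 1.90 ± 0.22 higher after injury (adjusted p = 0.000295), 2.13 ± 0.31 higher again with the inhibitor (adjusted p = 0.00176) and 4.05 ± 0.30 above sham (adjusted p = 0.000231), and all 3 calls held in every alternative. The other genes of spindle assembly in the set moved down instead. Tpx2, which activates Aurora A, measured 75.2, 74 and 75.3 in sham, 244, 265 and 236 in injured and 163, 172 and 88.3 in inhibitor-treated libraries. Hmmr, a spindle pole protein, measured 23.1, 22.3 and 13.1 in sham, 130.3, 152 and 83.5 in injured and 50.4, 45.95 and 26.4 in inhibitor-treated libraries. Both lay between sham and injured in every inhibitor-treated library. The call for Tpx2 against injury (adjusted p = 0.0359) was lost without injured replicate 1 (0.0788), 2 (0.0994) or 3 (0.0516) or inhibitor-treated replicate 1 (0.0547). Tpx2 was called above sham without inhibitor-treated replicate 3 (0.00545).

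The antigen Ki-67, encoded by Mki67 and used widely to count dividing cells, stayed high. Mki67 measured 69.2, 81.05 and 64.4 in sham, 609.6, 799 and 699 in injured and 522, 653 and 283 in inhibitor-treated libraries. All inhibitor-treated libraries lay above all sham libraries, and replicate 2 lay inside the injured range. Mki67 rose by 3.27 ± 0.17 on the log2 scale after injury (adjusted p = 1.33e-05) and remained 2.68 ± 0.28 above sham with the inhibitor (adjusted p = 0.00118). Its difference from injury was -0.60 ± 0.29 (adjusted p = 0.148, not called). Top2a, the topoisomerase that untangles sister chromatids, measured 64.2, 86.9 and 77.5 in sham, 639.5, 676 and 546 in injured and 308, 258.2 and 119 in inhibitor-treated libraries. It was lower than after injury (-1.54 ± 0.33, adjusted p = 0.0103) and higher than sham (1.49 ± 0.33, adjusted p = 0.0363). The call for Top2a against sham was lost without sham replicate 1 (adjusted p = 0.132), 2 (0.0909) or 3 (0.0732) and without inhibitor-treated replicate 1 (0.112) or 2 (0.128). Ncapg, a condensin subunit, measured 8.03, 16.4 and 13.1 in sham, 52.6, 89.3 and 48.2 in injured and 63.7, 55.1 and 23.7 in inhibitor-treated libraries, overlapping the injured libraries, and was called above sham without inhibitor-treated replicate 3 (adjusted p = 0.0143, against 0.0553 with it).

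Of the 3 genes of the central spindle and cytokinesis, 2 rose after injury and 1 fell, and these were the 3 smallest changes of the set. Anln encodes anillin, which ties actin, septins and the cleavage furrow together. It measured 1087, 919.7 and 765 in sham, 306, 371 and 380.4 in injured and 970.1, 891 and 777 in inhibitor-treated libraries, so the injured libraries were the low ones and the other groups overlapped. Anln changed by -1.39 ± 0.16 after injury (adjusted p = 0.000294) and by 1.32 ± 0.13 with the inhibitor (adjusted p = 0.000413), both called in every alternative. Per kilobase of exon Anln was the highest of the 37 genes in sham, at a mean of 102 normalised counts per kilobase, against at most 23.6 (Cdc20) among the others; in injured libraries it stood at 38.9. Prc1, which crosslinks microtubules of the central spindle, measured 71.2, 115 and 76.4 in sham, 141, 231 and 213 in injured and 124, 145 and 105 in inhibitor-treated libraries. Ect2, the exchange factor that activates RhoA for the furrow, measured 22.1, 34.1 and 31.6 in sham, 69.3, 95.01 and 98.96 in injured and 78.9, 81.8 and 32.8 in inhibitor-treated libraries. The inhibitor-treated libraries of both overlapped both other groups, although Prc1 was called lower than injury without injured replicate 1 (adjusted p = 0.0187) and Ect2 above sham without inhibitor-treated replicate 3 (0.0226).

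The anaphase promoting complex marks cyclins and other proteins for destruction, with Cdc20 as its activator in early mitosis and Ube2c as the enzyme that hands it ubiquitin. Cdc20 measured 42.1, 52.9 and 37.1 in sham, 171, 139 and 121 in injured and 64.7, 54.2 and 47.4 in inhibitor-treated libraries, overlapping sham after a change of -1.35 ± 0.21 (adjusted p = 0.0026). Cdca3, a gene linked to mitotic entry, measured 13.04, 21.1 and 19.6 in sham, 142, 128 and 63.7 in injured and 43.8, 48.7 and 30.1 in inhibitor-treated libraries, in between. Its call against injury (adjusted p = 0.0213) was lost without injured replicate 1 (0.0659), injured replicate 2 (0.0724), inhibitor-treated replicate 1 (0.0567) or inhibitor-treated replicate 3 (0.0673).

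Ube2c measured 46.1, 39.9 and 75.3 in sham, 428, 1379 and 166 in injured and 772, 1434 and 506 in inhibitor-treated libraries. All inhibitor-treated libraries were above all sham libraries (3.98 ± 0.38, adjusted p = 0.000782), and they overlapped the injured libraries, which were widely spread. Ube2c, on the plus strand of chromosome 2 from 164769898 to 164778822, shares 592 exon bases (22.8% of its own) with Tnnc2, the troponin C gene of fast skeletal muscle, which lies on the minus strand from 164777161 to 164779967. Tnnc2 measured 159, 148 and 563 in sham, 1393, 11555 and 528 in injured and 58.96, 801 and 168 in inhibitor-treated libraries, so the highest library of each group was the same for both genes: sham replicate 3, injured replicate 2 and inhibitor-treated replicate 2. In every sham and injured library Ube2c was below Tnnc2, and in every inhibitor-treated library it was above it. Whether counting used strand is not given in the sources used here, so reads of the overlap cannot be told apart. Without injured replicate 2 the rise of Ube2c after injury was 2.33 (adjusted p = 0.00491), against 3.12 ± 0.66 (0.00616) with it, and its difference between inhibitor and injury was 1.63 (0.0682), against 0.84 ± 0.73 (0.399).

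Exons of 9 of the 37 genes overlapped an exon of another gene that was measured here. Besides Ube2c these were Ccna2 (with Exosc9), Cdc20 (Elovl1), Cdca8 (9930104L06Rik), Kif20a (Cdc23), Kif4 (Pdzd11), Ncapg (Lcorl), Nusap1 (Oip5) and Prc1 (Rccd1), all on opposite strands. Kif20a shared the most, 1271 bases or 29.3% of its exon bases, with Cdc23, which measured 1018, 884 and 844 in sham, 508, 702 and 831 in injured and 886, 797 and 866 in inhibitor-treated libraries. For Nusap1 the overlap was 172 bases (4.2%), and Oip5 measured 13.04, 24.7 and 17.5 in sham, 33.5, 43.7 and 21.5 in injured and 35.2, 31.2 and 10.9 in inhibitor-treated libraries, far below the 651, 1074 and 435 of Nusap1 in the inhibitor-treated libraries.

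As a description of how far each gene returned, the share of the injury difference that was absent with the inhibitor was computed from group means on the log2 scale (0% leaves the injured level, 100% the sham level). No test was made, since both terms use the injured libraries. Its median over the 36 genes that rose was 54.5%. In 10 genes it was at least 75%, from 77.1% for Cdk1 through 88.7% for Foxm1, 95.5% for Ccnb1, 95.9% for Plk1 and 98.9% for Nuf2 to 105% for Cdca8. It lay from 25% to 75% in 19 genes, among them Top2a at 51.1%, Ccna2 at 52.1% and Cenpa at 70.6%. In 4 genes it was from 0% to 25%: Kif15 (2.66%), Mki67 (18.4%), Ncapg (20.9%) and Kif11 (24%). The 3 genes below 0% were Ube2c (-26.7%), Bub1b (-94.6%) and Nusap1 (-111%). With single libraries left out Nusap1 ran from -127.7% to -93.6%, Bub1b from -130.1% to -76.01% and Ube2c from -69.4% (without injured replicate 2) to -2.64% (without injured replicate 3), with -14.0% without inhibitor-treated replicate 2. Without inhibitor-treated replicate 3 the share was -21.0% for Kif15, 7.85% for Mki67, 1.79% for Ncapg, 10.1% for Kif11 and 31.3% for Ccnb2. Kif15 and Ncapg reached 17.2% and 32.7% without inhibitor-treated replicate 1, and Kif15 11.8% without replicate 2 of that group. Without injured replicate 2 Ncapg was at 10.02% and Kif15 at 0.30%, which was at 1.09% without injured replicate 1 and 6.35% without injured replicate 3. Partners within one machinery had different shares, as with Ccnb1 at 95.5% and Ccnb2 at 51.2%, or Nuf2 at 98.9% and Cenpe at 54.5%, and no difference between genes was tested.

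**Figure D4:**
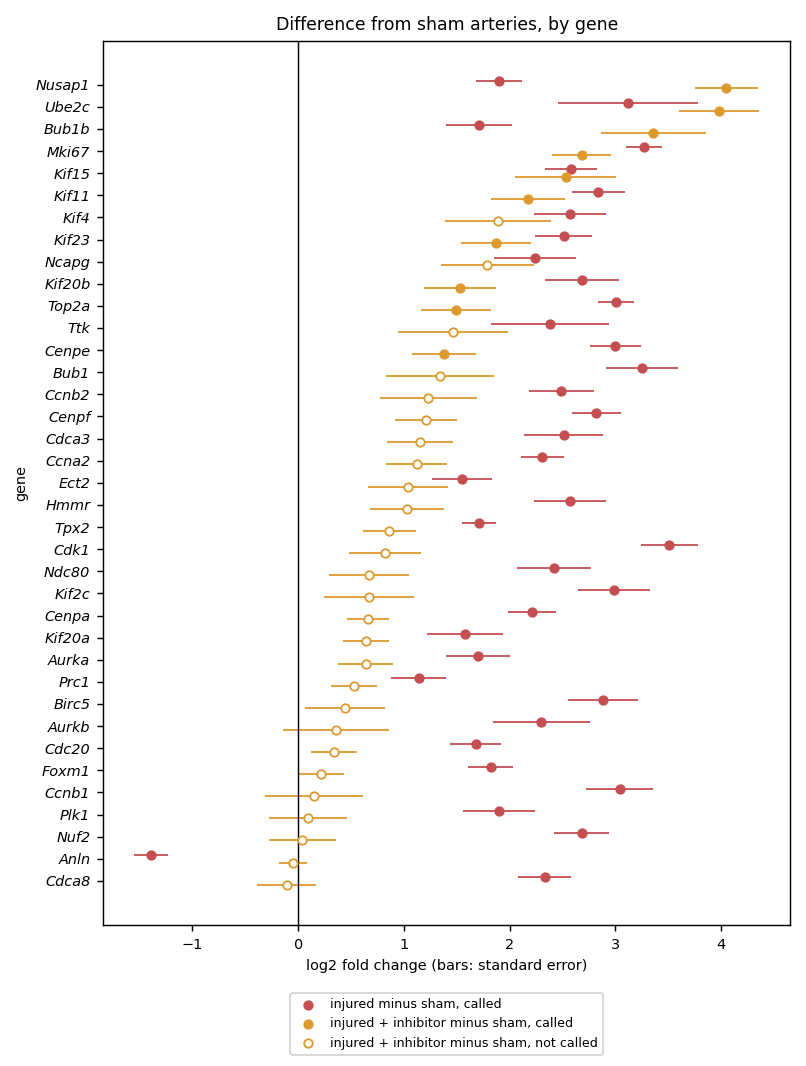
Log2 fold change from sham (horizontal axis, bars are standard errors) of the 37 genes after injury alone (red) and with the inhibitor (orange), ordered by the second value; filled points passed the test and open points did not. Red points lie right of 0 for all genes but Anln, and orange points spread from -0.11 for Cdca8 to 4.05 for Nusap1.

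By the position of the single libraries, 13 of the 37 genes had every inhibitor-treated library above every sham and below every injured library, among them Top2a, Cdk1, Ccna2, Kif20b, Cenpe and Cenpf. No margin was required, and Bub1, the closest case, is counted with 10.93 in its lowest inhibitor-treated and 10.91 in its highest sham library, from 12 and 10 reads. Another 10 overlapped sham and lay below all injured libraries (Foxm1, Ccnb1, Ccnb2, Aurkb, Plk1, Birc5, Cdca8, Ndc80, Nuf2 and Cdc20), and 9 lay above sham and overlapped the injured libraries (Mki67, Ttk, Kif11, Kif15, Kif20a, Kif23, Kif4, Ncapg and Ube2c). The last 5 were Nusap1 and Bub1b above both groups, Prc1 and Ect2 overlapping both, and Anln overlapping sham and above the injured libraries. In total 24 genes separated inhibitor-treated from sham libraries upwards and none downwards, where 14.7% and 13.1% of all genes did so. Against injury 23 separated downwards and 3 upwards, with 25.5% and 26.1% of all genes, and after injury 36 separated upwards and 1 downwards, with 26.0% and 25.3% of all genes.

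On the per-kilobase scale, which allows levels to be compared between genes, the order of the highest genes differed between groups. In injured libraries Ube2c led with a mean of 253 normalised counts per kilobase of exon, with 164.6, 530.2 and 63.9 in the single libraries and a mean of 114 without injured replicate 2, and in injured replicate 3 it did not lead. It shares exon bases with Tnnc2, as given above, and strand use in counting is not given in the sources used here. Next came Cdc20 (76.9), Ccnb2 (74.97), Ccna2 (70.8), Mki67 (69.8) and Top2a (68.8). With the inhibitor the order was Ube2c (348), Nusap1 (178), Bub1b (119), Anln (97) and Mki67 (48.3), with Top2a at 25.4 and Cdk1, at 44.7 after injury, down to 6.75. In inhibitor-treated replicate 3 Bub1b (43.9) lay below Anln (85.7). Without inhibitor-treated replicate 2 their means were 98.7 for Bub1b and 96.4 for Anln. The order among the genes next to Cdc20 in injured libraries rests on means closer than the spread between replicates, since Ccna2 alone had a mean of 289 ± 53.2 (SD, n = 3) normalised counts.

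A list of 70 other genes of the spindle and kinetochore moved mostly in the same direction. After injury 52 of the 69 tested rose and 1 fell (median 2.07), where 20.6% and 16.8% of all genes did. Aspm, a spindle pole protein, went from 12.04, 14.1 and 13.1 in sham to 78.9, 104 and 142 in injured libraries (2.91 ± 0.30, adjusted p = 0.000169), and Spag5 and Ccnf (cyclin F) rose by 2.74 ± 0.41 and 2.67 ± 0.28. With the inhibitor 33 of 69 fell and 9 rose against injury (median -0.80), where 18.5% and 17.6% of all genes did. Against sham 18 of the 63 tested were above and none below (median 0.66), where 5.15% and 0.934% of all genes were. Limma and edgeR both counted 18 higher and none lower than sham, DESeq2 21 higher and none lower, and at an unadjusted p under 0.05 limma counted 31 higher and 1 lower. Nek2, a centrosome kinase, measured 20.1, 15.3 and 13.1 in sham, 88.5, 105 and 72.3 in injured and 15.2, 11.03 and 13.7 in inhibitor-treated libraries (-2.64 ± 0.27 against injury, adjusted p = 0.000454).

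Knl1, the scaffold on which Bub1 and BubR1 dock at the kinetochore, measured 9.03, 5.87 and 5.46 in sham, 44.2, 57 and 54.2 in injured and 1317, 1084 and 326 in inhibitor-treated libraries. It was 3.89 ± 0.49 above injury (adjusted p = 0.00098) and 6.68 ± 0.49 above sham (adjusted p = 0.000219). Inhibitor-treated replicate 3 was the lowest of its group, as it was for Nusap1 and Bub1b.

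Of 17 condensin and cohesin genes 6 rose and 1 fell after injury (median 0.09), where 20.6% and 16.8% of all genes did, and 3 rose and 5 fell with the inhibitor against injury (median -0.07), where 17.6% and 18.5% did. Ncaph, of the same condensin complex as Ncapg, measured 20.1, 30.5 and 19.6 in sham, 96.8, 131 and 154 in injured and 49.5, 35.8 and 30.1 in inhibitor-treated libraries (-1.70 ± 0.27 with the inhibitor, adjusted p = 0.00283). Esco2, the enzyme that acetylates cohesin, measured 6.02, 9.40 and 7.64 in sham, 32.3, 70.3 and 49.05 in injured and 243, 384 and 126 in inhibitor-treated libraries (2.22 ± 0.44, adjusted p = 0.00736). Against sham 3 were higher and none lower (median 0.09), where 5.15% and 0.934% of all genes were. These were Esco2 by a log2 fold change of 4.75 ± 0.39, Wapl by 0.63 ± 0.11 and Smc4 by 0.35 ± 0.07. The count against sham was 3 higher and none lower in edgeR and DESeq2 too, and limma counted 4 and 1 at an unadjusted p under 0.05. Core subunits of the anaphase promoting complex (15) gave 2 lower calls after injury, a share under the 16.8% of all genes. These were Anapc7 (-0.96 ± 0.15, adjusted p = 0.00126) and Anapc11 (-0.54 ± 0.14, 0.0154), with none higher in limma, edgeR or DESeq2 or at an unadjusted p under 0.05. With the inhibitor 1, Anapc7, was higher than after injury (0.88 ± 0.08, adjusted p = 0.000303) and none lower by the same tools, where 17.6% and 18.5% of all genes were. None of the 15 was called against sham in any of the 3 tools, with 1 higher and 3 lower at an unadjusted p under 0.05 in limma. By limma 6.08% of all genes were called against sham.

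Of 20 regulators of cell cycle transcription 8 rose and 4 fell after injury (median -0.10), where 20.6% and 16.8% of all genes did. With the inhibitor 6 rose and 6 fell against injury (median 0.01), where 17.6% and 18.5% of all genes did. Against sham 4 were above and none below (median 0.06) in limma, edgeR and DESeq2, with 5 higher and 1 lower at an unadjusted p under 0.05 in limma. By limma 5.15% of all genes were called above sham and 0.934% below. E2f1, an activator of replication genes, measured 127, 108 and 109 in sham, 363, 343 and 257 in injured and 90.3, 103 and 66.5 in inhibitor-treated libraries. All inhibitor-treated libraries of E2f1 lay below all sham libraries, a downward separation that 13.1% of all genes had. E2f2 was higher in injured than in sham libraries and higher again with the inhibitor. It measured 16.1, 21.1 and 27.3 in sham, 122, 212 and 113 in injured and 388, 627 and 794 in inhibitor-treated libraries. Its difference between inhibitor and injury was 2.01 ± 0.32 (adjusted p = 0.0029). Lin54, the DNA-binding subunit of MuvB, measured 235, 202 and 199 in sham, 158, 205 and 194 in injured and 989, 1191 and 459 in inhibitor-treated libraries. Tfdp2, a dimer partner of E2F factors, measured 863, 802 and 864 in sham, 423, 544 and 670.4 in injured and 3597, 5937 and 2826 in inhibitor-treated libraries. Against injury Lin54 was 2.14 ± 0.34 (adjusted p = 0.00262) and Tfdp2 2.87 ± 0.28 (adjusted p = 0.000382) higher. For both genes the inhibitor-treated libraries lay above all others, while injured libraries overlapped sham for Lin54 and lay below it for Tfdp2.

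DNA replication genes (42) rose after injury in 25 cases and fell in 2 (median 0.71), where 20.6% and 16.8% of all genes did. Uhrf1, a factor that keeps DNA methylation through replication, measured 37.1, 35.2 and 45.8 in sham, 196, 268 and 126 in injured and 52.3, 64.3 and 58.3 in inhibitor-treated libraries. Rrm2, a subunit of ribonucleotide reductase, measured 55.2, 49.3 and 72.01 in sham, 244, 241 and 190.2 in injured and 80.8, 141 and 73.8 in inhibitor-treated libraries. With the inhibitor 26 fell and 2 rose against injury (median -0.72), where 18.5% and 17.6% of all genes did. Against sham none of the 40 tested was called in limma or edgeR (median -0.02), while DESeq2 called 3 higher, and at an unadjusted p under 0.05 limma counted 8 higher and 3 lower. The mitotic genes and the replication genes thus gave 10 of 37 and 0 of 40 calls above sham in limma, where 5.15% of all genes were called. The difference between these lists was not itself tested.

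Most markers of red cell precursors, which divide, were high in all 3 inhibitor-treated libraries. Of 20 erythroid precursor markers, 18 had values in all libraries, and 2 or 3 of these were at 0 in each sham and injured library. Their summed level was 1007 to 1267 in sham libraries, 1147 to 3211 in injured libraries and 47240, 103900 and 55390 in inhibitor-treated replicates 1, 2 and 3. Of the 18, 16 were called above sham (median 6.51), where 5.15% of all genes were. In the comparison of injury with sham only 8 of the list passed the filter on the mean. Several markers were thus tested against sham only through their high level with the inhibitor, so the share of all genes is no fair measure for them. Alas2, which makes haem in red cell precursors, measured 278, 150.3 and 313 in sham, 158, 64.6 and 94.7 in injured and 31035, 72936 and 43351 in inhibitor-treated libraries. Gata1, the erythroid transcription factor, was at 0 in all 3 sham libraries and at 1.20, 0.95 and 1.72 in injured and 69.4, 127 and 64.7 in inhibitor-treated ones. Against injury 15 of 19 tested were higher and none lower, where 17.6% and 18.5% of all genes were. Epor measured 8.03, 14.1 and 12 in sham, 23.9, 28.5 and 26.7 in injured and 16.2, 23.9 and 12.75 in inhibitor-treated libraries. Tal1 measured 197, 150 and 192 in sham, 276, 343 and 329 in injured and 341, 417 and 318 in inhibitor-treated libraries. In the mean log2 level of the list inhibitor-treated replicate 2 was the highest (9.54) and replicate 3 the lowest (8.33) of the group, and these were also the highest and lowest in the mean of the mitotic genes (6.29 and 5.48). By summed level, and for Alas2, replicate 1 was the lowest instead. The part of these cells in the mitotic transcripts was not tested. In bulk tissue more cells of a type and more RNA per cell cannot be told apart, and neither can dividing smooth muscle cells and dividing cells of another kind.

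Markers of white cells, endothelium and fibroblasts moved as well. Over all genes, 20.6% were called higher and 16.8% lower after injury. With the inhibitor 17.6% were higher and 18.5% lower than after injury, and 5.15% higher and 0.934% lower than sham. The macrophage and monocyte list rose after injury in 13 of 15 markers and fell in 1. With the inhibitor 14 of 15 were lower than after injury and 1 higher. Its summed level was 7649 to 8939 in sham, 39330 to 59410 in injured and 9015 to 13850 in inhibitor-treated libraries, with none at 0. Neutrophil markers rose after injury in 12 of 12 tested. With the inhibitor 5 of 12 were lower and 2 higher than after injury, and 6 of the 8 that could be tested were above sham. Their summed levels were 113 to 149.5 in sham, 1586 to 7081 in injured and 2477 to 2814 in inhibitor-treated libraries. In this list 1 to 4 markers were at 0 in a sham library and 2 were in inhibitor-treated replicate 3. Lymphocyte markers rose in 10 of 12 tested. With the inhibitor 3 of 14 were lower and 2 higher than after injury, and 10 of 14 were above sham. Their summed levels were 164.5 to 256 in sham, 2509 to 6524 in injured and 838 to 2772 in inhibitor-treated libraries. Some neutrophil and lymphocyte markers passed the filter on the mean only through the group where they were high, so these counts follow in part from the filter. Examples are Ngp (mean of 3.21 in sham and 366 in injured), Cxcr2 (0.39 in sham and 147 with the inhibitor) and Ms4a1 (6.99 in sham and 202 with the inhibitor). Endothelial markers rose after injury in 8 of 12 (median 0.77), were lower with the inhibitor than after injury in 8 of 12 (median -0.66), and none was called against sham in limma, edgeR or DESeq2, with 1 higher at an unadjusted p under 0.05. Their summed levels were 27450 to 41100 in sham, 40210 to 53500 in injured and 34500 to 35460 in inhibitor-treated libraries, with none at 0. Fibroblast markers rose after injury in 8 of 10 and fell in 1 (median 0.98), and with the inhibitor 8 of 10 were lower and 1 higher than after injury (median -1.34) and 3 were lower than sham. Their summed levels were 123400 to 148500 in sham, 222800 to 329800 in injured and 103500 to 113600 in inhibitor-treated libraries, with none at 0. The smooth muscle list fell after injury in 11 of 12 markers and rose with the inhibitor in 11 of 12, and none differed from sham in limma, edgeR or DESeq2, with 1 higher at an unadjusted p under 0.05. By mean log2 level the mitotic genes as a set lay between sham and injured in inhibitor-treated libraries, and the erythroid list lay above both. By summed level the 36 mitotic genes overlapped injury, at 4943.5, 6236.6 and 2755.2 in inhibitor-treated and 6315.3, 7983.5 and 5473.9 in injured libraries. The part of red cell precursors and of the other cell types in the result was not tested.

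**Figure D5:**
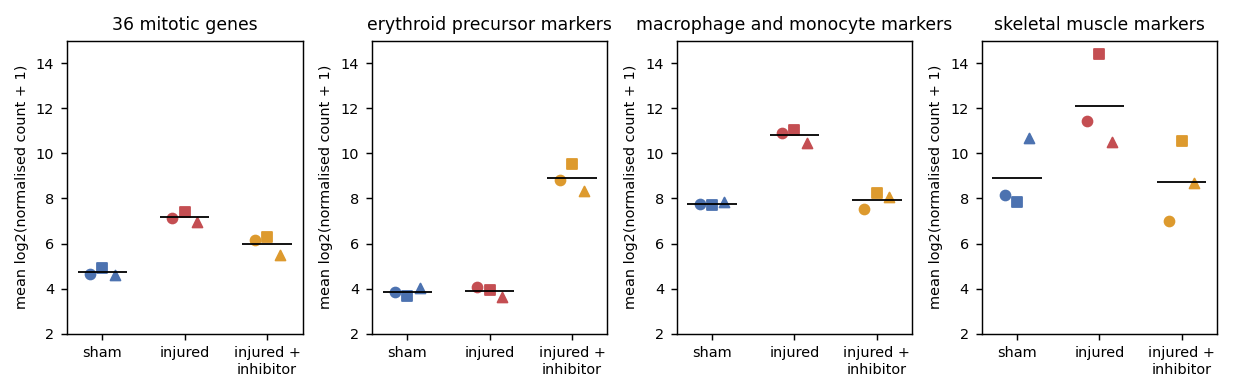
Mean log2(normalised count + 1) per library (vertical axes) of the 36 mitotic genes that rose after injury and of 3 marker lists, by group; symbols are replicates 1 to 3 and lines are group means. The erythroid precursor markers are at 3.61 to 4.08 in sham and injured libraries and at 8.33 to 9.54 in inhibitor-treated ones, and injured replicate 2 is highest for skeletal muscle markers (14.39).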

How the data were processed

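RNA-seq of 9 libraries was used from 3 deposited tables, 1 for each pair of groups, with 16187 to 16933 genes. The values are a normalised signal per gene: per the file headers each library has its own column, and the deposited values are whole read counts divided by 1 size factor per library, since 100% of values gave whole reads (within 0.01), from 14676405 to 21247261 per library. The log2 fold changes and p-values in the deposited tables come from the authors' own comparisons, with the test not given in any source used here, and served only as an alternative. The build was mm10 (GRCm38) per the submitters' processing notes, with aligner, counter and strand setting not given in the sources used here.

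Each comparison was fitted over all genes of its table with limma 3.58.1 (R 4.3.3, trended variance) on log2(value + 1), for genes with a mean of at least 10, and p-values were adjusted by Benjamini-Hochberg (threshold 0.05). Fold changes are on that log2 scale and understate the change of low genes. Each pair of comparisons shares 3 libraries. Levels were put on one scale over 9 libraries by median-of-ratios factors. A gene's exon lengths and overlaps came from GENCODE M21. Alternatives were pseudocounts of 0.5 and 10, no filter or a mean of at least 50, quantile and ribosomal protein scaling, 1 fit of all 9 libraries, a replicate block, leaving out libraries, edgeR 4.0.16 and DESeq2 1.42.0 on recovered reads, and the deposited results. The procedure was also run on simulated counts with a fixed spread and no mixed tissue, a simpler case than these libraries. No result here rests on that run.

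The 37 genes and the other lists were chosen with earlier results of these data known. All 37 are named, and of each other list up to 3 called genes with the largest change per comparison among those with a mean of at least 50, with defining markers of other cell types. Some named-gene results are not reported here.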

Additional observations from a re-analysis of the deposited data

How the results depend on the processing

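Of the calls, 34 of 37 after injury and 18 of 26 for inhibitor against injury held in every alternative that tested the gene. For inhibitor against sham 4 of 10 held in all 18 alternatives. The number of genes above sham with the inhibitor, 10, was 6 with quantile normalisation, 16 with ribosomal protein scaling, 18 without the 2 doubted libraries (of injured replicate 2, sham replicate 3 and inhibitor-treated replicate 3, those in the comparison) and from 4 (without sham replicate 1) to 16 (without inhibitor-treated replicate 3) when single libraries were left out. The fit with a replicate block gave 36 genes higher and 1 lower after injury, 3 higher and 23 lower for inhibitor against injury and 10 higher and 0 lower for inhibitor against sham. Over all genes it gave 5762, 5747 and 877 calls in these comparisons, against 6076, 6099 and 983 without it. Same-numbered libraries correlated at -0.0761 to 0.192, and not every library correlated best with its own number. With 3 libraries in each group these correlations cannot decide whether the numbers pair the samples.

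Differences that changed sign were all uncalled on both sides, and the cause was not tested. For inhibitor against injury Kif15 gave 0.08 with quantile normalisation, 0.30 with ribosomal protein scaling, 0.60 without the doubted libraries, 0.15 in edgeR, DESeq2 and the authors' deposited table, and -0.44 to 0.55 with single libraries left out; without the doubted libraries Ncapg gave 0.23 and Kif4 0.03. For inhibitor against sham quantile normalisation gave -0.15 for Foxm1, -0.01 for Cdc20, -0.13 for Aurkb, -0.41 for Nuf2, -0.33 for Plk1 and -0.76 for Ccnb1, ribosomal protein scaling 0.02 for Cdca8 and 0.09 for Anln, and leaving out the doubted libraries -0.04 for Nuf2 and -0.11 for Plk1. With single libraries left out the ranges were -0.14 to 0.67 for Aurkb, -0.08 to 0.17 for Nuf2, -0.26 to 0.05 for Cdca8, -0.17 to 0.39 for Plk1, -0.17 to 0.07 for Anln and -0.09 to 0.50 for Ccnb1. A mean of at least 50 left 13 of the 37 genes to test against sham, 8 of them called. Depth limits the sham values most, where 3 to 5 genes had under 10 reads.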
